A study of Mus musculus with 8 samples.

Results

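The genes described here are the mouse genes named Zfp and a number, which code for zinc finger proteins, as they were measured in total and in ribosome-bound mRNA of MII oocytes. They were chosen by symbol from the genes present in both deposited tables. Of the 8537 genes that the 2 deposited tables share, 177 carried such a name, and 8359 other genes served for comparison. A total of 212 Zfp genes were in at least 1 of the tables, namely 205 in the input table and 184 in the HA table.

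Females were of the RiboTagF/F;Zp3-Cre line on C57BL/6, in which Cre is driven by the promoter of the oocyte gene Zp3 and adds an HA tag to the ribosomal protein Rpl22. Young mice were 1 month and old mice 12 to 15 months of age, and animals of both ages carried the same alleles. The old females were retired breeders, so age and breeding history cannot be told apart. All were primed with 5 IU PMSG and given 10 IU hCG 48 h later. Oocytes were taken at 13 h from hCG and combined, 200 to a pool, with 2 pools per age. A share of 10% of each lysate gave an input library of total mRNA, and the remainder an HA library of the mRNA precipitated with tagged ribosomes, so that 4 pools yielded 8 libraries.

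The C2H2 zinc finger is a short fold in which a pair of cysteines and a pair of histidines hold a zinc ion. Many Zfp proteins string such fingers into arrays that read DNA, and one large class carries at its start a KRAB domain, which recruits Trim28 (KAP1) and through it the histone methyltransferase Setdb1. KRAB zinc finger proteins are known for silencing retroelements and for keeping imprints in the early embryo, and several are stored by the oocyte as protein or mRNA. A growing oocyte transcribes its mRNA in advance, and the MII oocyte is transcriptionally silent, so protein output then rests on which stored mRNA is loaded on ribosomes. One known route is polyadenylation through the cytoplasmic polyadenylation element (CPE), a U-rich motif of the 3'-UTR.

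The label was checked on the coding sequences. GENCODE M21 (build GRCm38) listed 176 of the 177 genes as protein-coding, and Zfp939 as a transcribed pseudogene. At least 3 C2H2 fingers were found in 157 of them, with a median of 11 and at most 36, whereas 20 had fewer than 3 or no coding sequence, among them Zfp36, whose zinc fingers are of the CCCH type. A KRAB pattern was found in 88 genes and in 89 it was not. The pattern is a short sequence match, so a KRAB domain that departs from it would be counted among the 89. Genes with the pattern had a median of 12 fingers and those without it a median of 6.50. The Zfp genes were clustered in the genome. Chromosome 7 held 43 of them and chromosome 17 held 22, and 96 had another Zfp gene starting within 500000 bases.

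The sequence of a single finger shows how these genes differ from each other. Printed are the middle finger of the array in 3 of the 4 genes with the highest HA/input ratio and in 2 of the 4 with the lowest (the values follow below), from GENCODE M21 transcripts on GRCm38, plus strand, exonic and coding. Fingers were numbered here among those of a fixed spacing that lie in a single exon. The totals can thus be below the number of C2H2 fingers found with the looser pattern above. Capitals mark the codons of the cysteines and histidines that hold the zinc.
Zfp616, chr11:74085103-74085186, finger 10 of 18, 38.1% GC: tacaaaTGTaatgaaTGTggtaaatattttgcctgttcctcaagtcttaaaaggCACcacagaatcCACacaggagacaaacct
Zfp735, chr11:73712098-73712181, finger 4 of 7, 34.5% GC: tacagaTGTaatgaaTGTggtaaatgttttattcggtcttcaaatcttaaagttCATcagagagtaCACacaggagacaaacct
Zfp873, chr10:82060559-82060642, finger 9 of 16, 46.4% GC: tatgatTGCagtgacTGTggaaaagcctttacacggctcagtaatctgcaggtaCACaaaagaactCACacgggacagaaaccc
Zfp574, chr7:25081130-25081213, finger 9 of 16, 66.7% GC: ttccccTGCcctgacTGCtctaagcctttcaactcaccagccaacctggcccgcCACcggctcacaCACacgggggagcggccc
Zfp84, chr7:29777049-29777132, finger 6 of 11, 46.4% GC: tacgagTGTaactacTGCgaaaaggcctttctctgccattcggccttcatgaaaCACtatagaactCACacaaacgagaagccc
The same fold was thus written in letters that ranged from 34.5% to 66.7% GC. Over whole transcripts the GC content of the 177 genes ran from 33.8% to 66.1%, with a median of 40.2% in genes with a KRAB pattern, 50.3% in those without and 49.0% in all other genes. Zfp616 and Zfp735 lie within 500000 bases of each other on chromosome 11, and each shared under 1% of its 50-base words with any other gene.

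The libraries held 37817382 to 60052814 reads on the genes of their table, and the Zfp genes took 1.00% to 1.20% of them in each library. Reads of 71 Zfp genes cannot be told from those of an annotated gene that overlaps them, since strand was not used, and 24 share over 10% of their 50-base words with another gene. All 10 oocyte markers were in both tables, with summed levels of 9106 to 18047 CPM. Granulosa and cumulus cell markers (7 of 13 in the input and 3 of 13 in the HA table) summed to 32.5 and 113 CPM in old and 83.1 and 177 CPM in young input, and to 81.7 and 83.8 CPM in old and 156 and 182 CPM in young HA. Foxl2, Amh and the other markers of that list were not in the HA table, and none of 6 blood and immune markers was in either table. The part of these cells in the differences between ages was not tested. Agreement between pools was lowest for old HA. On log2(CPM + 1), the 2 old HA libraries differed by a median of 1.67 over the Zfp genes and 1.29 over other genes, the 2 young HA libraries by 0.90 and 0.75, the old input by 0.71 and 0.68 and the young input by 0.51 and 0.52. In old HA this was 0.38 above other genes of equal input level.

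In total mRNA, most Zfp genes were of low to moderate level. The mean input level over the 4 pools was under 10 CPM for 48 of the 177 genes, 10 to 100 CPM for 100 and at least 100 CPM for 29, with a median of 25.4 CPM against 30.4 CPM for other genes. Per kilobase of exon, the scale used to compare genes, input ran from 0.147 CPM per kb for Zfp810 to 197 for Zfp108, with a median of 5.03, and the 10 highest genes made up 40.3% of the sum. Highest after Zfp108 were Zfp592 at 190.4, Zfp957 at 109.6, Zfp655 at 72.9 and Zfp574 at 66.5 CPM per kb. In HA the order was Zfp655 at 121, Zfp957 at 118, Zfp616 at 117, Zfp592 at 117 and Zfp735 at 112 CPM per kb. The 5 leading genes of each fraction had 3 in common, while Zfp108 was 10th and Zfp574 38th in HA.

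Zfp592, whose protein is found with Zfp687 in a complex with chromatin regulators, had the most input CPM of the 177 genes, with 1283 and 1563 CPM in young and 1590.3 and 1209 CPM in old input. Its HA levels were 710.1 and 384 CPM in young and 1583 and 785 CPM in old pools, so that both old values lay above both young ones. Zfp108 had 385 and 486 CPM in young and 498 and 779.9 CPM in old input, and 219 and 227 CPM in young and 119 and 118 CPM in old HA. Here the old HA libraries were the lower ones. The reads of Zfp108 are less certain than most, since 13.3% of its 50-base words also occur in other genes, most of all in Zfp93.

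**Figure D1:**
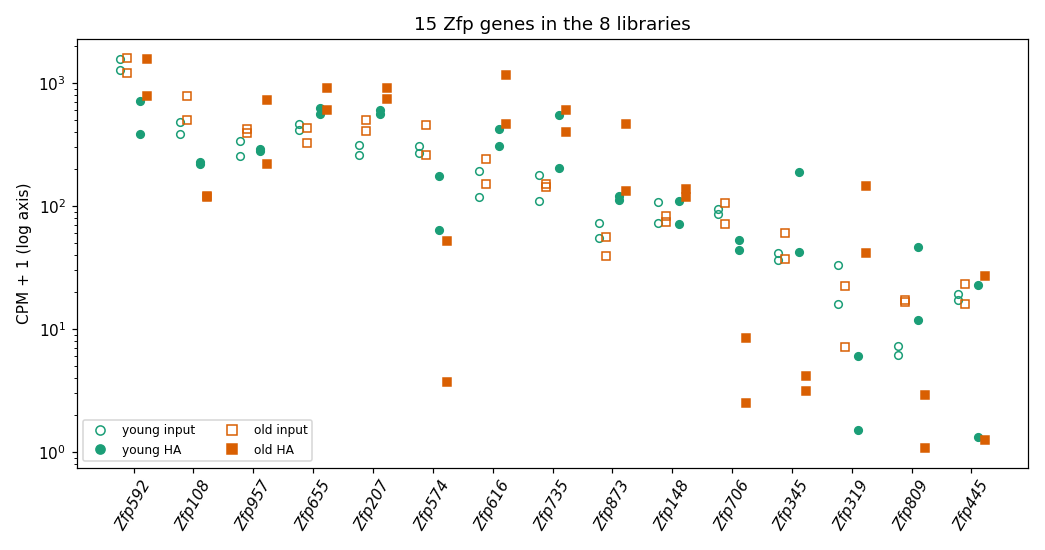
CPM + 1 on a log axis for 15 Zfp genes in the 8 libraries, with open symbols for input, filled symbols for HA, circles for young and squares for old pools, 1 point per library. Input points of a gene lie close together, whereas old HA points are often far apart, as for Zfp574 (51.0 and 2.73 CPM). For Zfp445 the HA points are far apart at both ages (21.9 and 0.317 CPM in young, 26.1 and 0.259 CPM in old).

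To ask whether these mRNAs sit on ribosomes more or less than other mRNAs of the same abundance, HA CPM was divided by input CPM in each pool. This ratio is called translation efficiency (TE) below. The 2 tables were scaled separately, so its absolute level is set by that scaling, and only its place among genes of equal input level (10 groups by mean input CPM) is compared. The Zfp genes as a whole did not stand apart. Their median ratio was 0.679 and 0.775 in the young and 0.621 and 0.528 in the old pools, against 0.730 and 0.723 and then 0.689 and 0.573 for other genes. On the log2 scale with 1 CPM added, the median distance from genes of equal input level was 0.00 and 0.00 in the young and -0.02 and 0.02 in the old pools. Between the lower and the upper quartile the genes spread from -0.78 to 0.58 in young pool 1 and from -1.34 to 1.48 in old pool 2. Above the median of their input group in all 4 pools were 26 of the 177 genes (14.7%, other genes 15.1%), and 18 lay below it in all 4 (10.2%, other genes 12.2%).

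**Figure D2:**
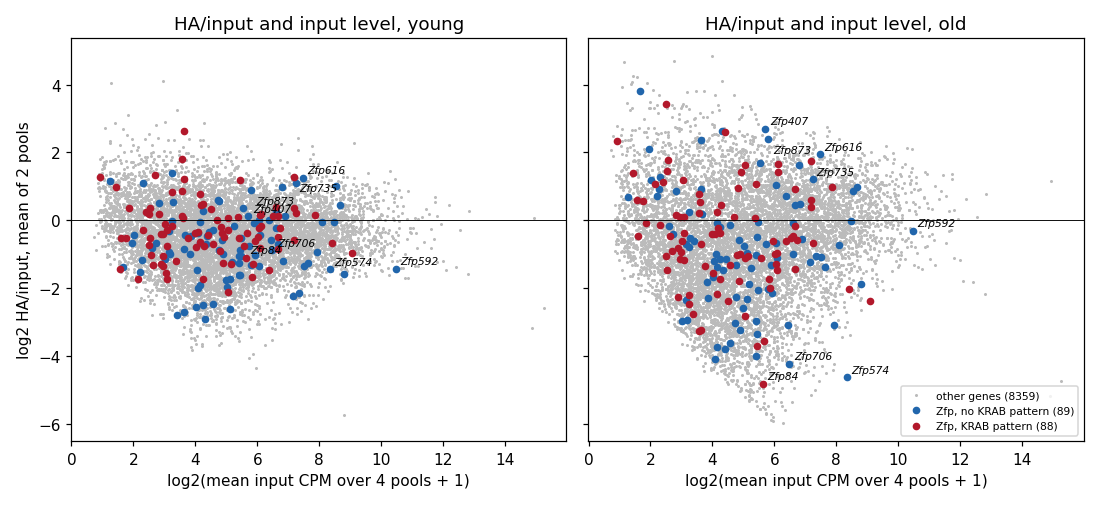
Log2 HA/input, as the mean of the 2 pools of an age, against log2(mean input CPM + 1) for young (left) and old (right) oocytes. The 177 Zfp genes are coloured and the other genes grey; the Zfp genes cover the same range as the grey points, and the spread is wider in old oocytes.

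The order of HA/input within the family is given for genes with a mean input of at least 10 CPM. At the top, Zfp873 had ratios of 2.24 and 1.53 in young and 8.47 and 3.41 in old pools. Zfp616 had 2.59 and 2.21 in young and 3.09 and 4.87 in old pools, and the nearby Zfp735 had 1.90 and 3.09 in young and 2.64 and 4.23 in old pools. Zfp407 had 1.44 and 0.820 in young and 19.2 and 2.44 in old pools. All 4 genes were above other genes of equal input level in each of the 4 pools. At the bottom, Zfp574 had ratios of 0.647 and 0.205 in young and 0.112 and 0.0105 in old pools. Zfp706 had 0.463 and 0.619 in young and 0.0214 and 0.0708 in old pools, and Zfp438 had 0.500 and 0.315 in young and 0.151 and 0.00485 in old pools. These 3 lay below other genes of equal input level in each of the 4 pools. Zfp84 had 2.41 and 0.0766 in young and 0.0567 and 0.00270 in old pools, so its place rested on 3 of the 4. These genes were picked from both ends of the same ratio, and the values are a description.

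A split by the KRAB pattern, which does not use the measured values, set the pools apart from each other more than it set the genes apart. Genes with the pattern were at 0.05 and 0.41 in the young and -0.08 and 0.60 in the old pools (median log2 HA/input above other genes of equal input level), and genes without it at -0.12 and -0.32 in the young and 0.13 and -0.31 in the old pools. The difference between the 2 classes was 0.17 and 0.73 in the young and -0.21 and 0.92 in the old pools. Its mean was 0.40 ± 0.52 (SD, n = 4 pools), which is smaller than its spread. The 27 genes of other names with a KRAB pattern and at least 3 fingers were at -0.07 and 0.35 in young and 0.12 and 0.99 in old pools, with the larger values again in the pools numbered 2. The 104 other C2H2 genes without the pattern were at -0.17 and -0.24 in young and -0.33 and -0.50 in old pools, and the 22 Zbtb genes at -0.11 and -0.13 in young and -0.02 and -1.35 in old pools. The 12 Zscan and Zkscan genes were at 0.41 and -0.24 in young and -0.33 and 0.24 in old pools, with no common direction.

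**Figure D3:**
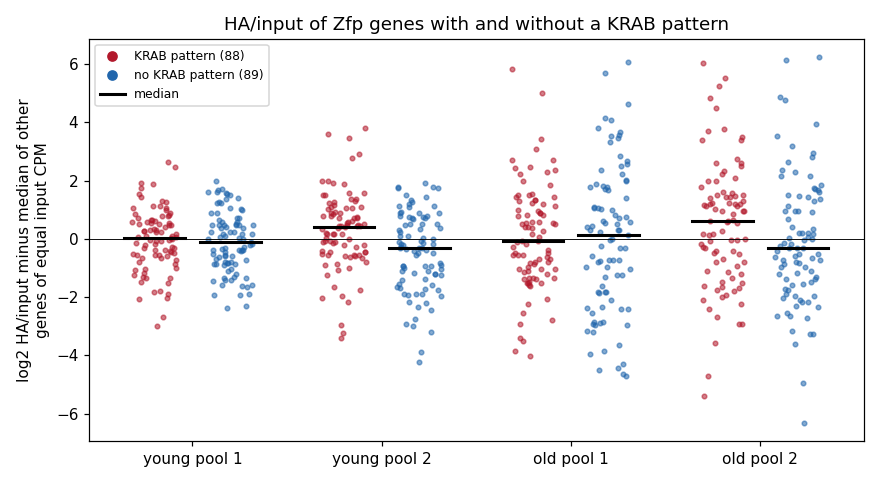
Log2 HA/input minus the median of other genes of equal input CPM, for each Zfp gene in each pool, split by the KRAB pattern (88 with, 89 without). Black bars are medians; the classes differ by 0.73 in young pool 2 and 0.92 in old pool 2 but by 0.17 in young pool 1 and -0.21 in old pool 1.

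GC content moved with this difference. Other genes were put in 10 groups by transcript GC content, of which the lowest had a median of 40.0% GC and held 52 of the 88 KRAB genes. From the lowest to the highest GC group, the median distance of other genes from their input group went from 0.24 to -0.21 in young pool 1, from 0.41 to -0.70 in young pool 2, from 0.10 to -0.40 in old pool 1 and from 0.45 to -0.83 in old pool 2. In the HA libraries alone, young pool 2 minus young pool 1 went from 0.35 to -0.86 over the same groups, and in input from 0.19 to -0.26. Among the 176 Zfp genes with a coding sequence, Spearman's rank correlation between GC content and the distance was -0.16 and -0.39 in young and 0.01 and -0.33 in old pools. These correlations run across genes of the same library, which are not independent. Compared with other genes of equal input level and then equal GC content, an alternative chosen after seeing the data, KRAB genes were at -0.13 and 0.09 in young and -0.12 and 0.41 in old pools. The difference between the classes then became -0.15 and 0.34 in young and -0.33 and 0.52 in old pools, with a mean of 0.10 ± 0.40 (SD, n = 4 pools).

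**Figure D4:**
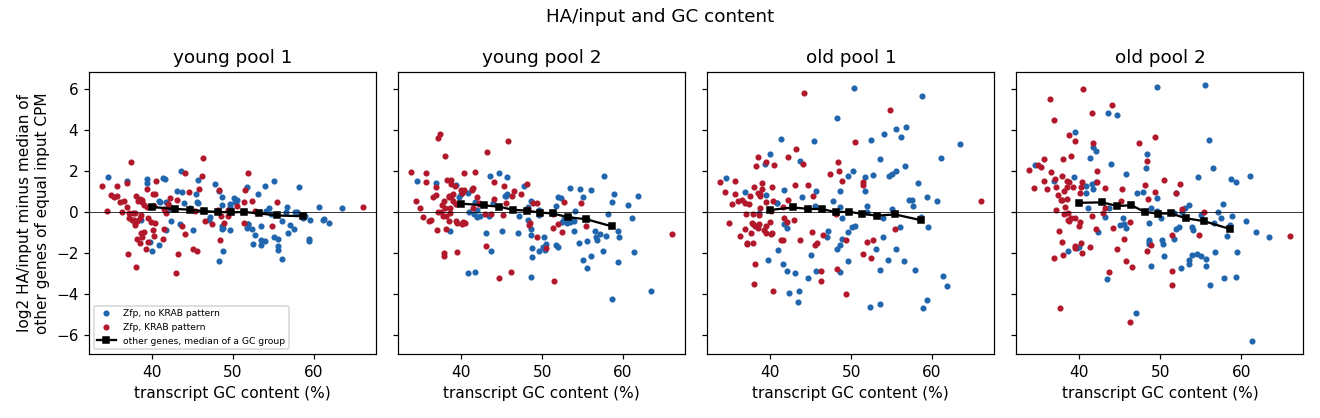
Distance of log2 HA/input from other genes of equal input CPM against transcript GC content (%), by pool. Each coloured point is a Zfp gene and black squares are medians of other genes in 10 GC groups, which fall from 0.41 to -0.70 in young pool 2 and from 0.45 to -0.83 in old pool 2, and less in the pools numbered 1.

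The CPE, which the choice of genes did not use either, was then examined. It was searched on the sense strand as TTTTAT or TTTTAAT in each gene's longest annotated 3'-UTR and found in 127 Zfp genes (71.8%) and in 65.7% of other genes. The last CPE before the 3' end is shown, in capitals, for 3 genes of high and 1 gene of low HA/input (GENCODE M21, GRCm38, 3'-UTR).
Zfp616, chr11:74087222-74087250, plus strand: taataggaaatTTTTAATctcaaaataat
Zfp735, chr11:73713685-73713712, plus strand: tgtgaatattaTTTTATtgttagtcttt
Zfp207, chr11:80405483-80405510, plus strand: aaagggtctaaTTTTATttctgagatat
Zfp706, chr15:36997825-36997852, minus strand: ctttaaaatatTTTTATatttgcaacgc
The element ends 53 bases before the annotated 3' end in Zfp616, 97 in Zfp735, 234 in Zfp207 and 809 in Zfp706. These genes were picked by hand as examples. Whether this distance goes with HA/input over the Zfp genes was not tested. Zfp genes with a CPE were at 0.05 and 0.03 in young and 0.06 and 0.12 in old pools, and the 50 without at -0.30 and -0.22 in young and -0.15 and -0.18 in old pools, relative to other genes of equal input level. Other genes differed in the same direction, at 0.08 and 0.08 in young and 0.09 and 0.18 in old pools with a CPE and at -0.15 and -0.21 in young and -0.18 and -0.37 in old pools without. Zfp genes with a KRAB pattern did not, at 0.05 and 0.38 in young and -0.13 and 0.59 in old pools with a CPE. The 26 without were at 0.03 and 0.45 in young and 0.22 and 0.78 in old pools. Zfp genes lacking the pattern were at 0.06 and -0.21 in young and 0.31 and -0.16 in old pools with a CPE. The 24 without were at -0.39 and -0.92 in young and -0.66 and -0.80 in old pools. With GC content made equal as well, Zfp genes with a CPE were at 0.08 and -0.06 in young and 0.07 and 0.14 in old pools, and those without at -0.23 and -0.38 in young and 0.08 and 0.18 in old pools. In the Zfp genes as a whole the difference then held in the young pools only. Other genes with a CPE were at 0.04 and 0.02 in young and 0.04 and 0.08 in old pools. Those without were at -0.09 and -0.06 in young and -0.14 and -0.25 in old pools, so there it held at both ages.

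Genes that lie side by side were not uniform either. The 13 Zfp genes in a run on chromosome 17 (21008903 to 22456689, all with a KRAB pattern) had median distances of 0.25 and 0.33 in young and 0.39 and 1.45 in old pools, with single genes between -1.37 (Zfp160) and 1.43 (Zfp942) as means of the 4 pools. A run of 9 on chromosome 7 (24134169 to 25227507, 6 with a KRAB pattern) had -0.35 and -1.25 in young and 0.60 and -1.12 in old pools, and ranged from -2.94 (Zfp574) to 1.38 (Zfp111). Over whole chromosomes, the 43 genes on chromosome 7 were at -0.43 and -0.18 in young and -0.59 and -0.51 in old pools. Of them, 9 lay below their input group in all 4 pools (20.9%, other genes 12.2%) and 1 above (2.33%, other genes 15.1%). The 22 genes on chromosome 17 were at 0.10 and -0.11 in young and 0.63 and 0.72 in old pools, with 6 above in all 4 pools (27.3%) and 1 below (4.55%). With GC content made equal as well, they were at 0.02 and -0.52 in young and 0.54 and 0.27 in old pools. The chromosome 7 genes were then at -0.43 and -0.49 in young and -0.60 and -0.53 in old pools.

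Low reads in HA were more frequent in old pools, as in other genes. At most 3 reads were counted for 14 and 19 of the 177 genes in the old HA libraries and for 0 and 3 in the young ones. Such a level is the floor of detection here and equals 0.0388 to 0.111 CPM (counting error only). As a share, these were 7.91% and 10.7% in old pools, against 9.98% and 15.1% of other genes weighted to the same input levels. Zfp418 and Zfp868 were at or under that floor in both old HA libraries, and no Zfp gene was in both young ones. In input, 5 and 1 genes were at the floor in old pools and none in young pools.

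Old and young oocytes were first compared in total mRNA. In input, none of the 177 genes passed an adjusted p of 0.05 in limma with Benjamini-Hochberg adjustment over the 10530 genes of the table (0.00950% of all genes did). The smallest adjusted p of a Zfp gene was 0.778. At an unadjusted p under 0.05, 6 were higher and 5 lower in old oocytes, or 3.39% and 2.82%, and over all genes these shares were 2.71% and 3.48%. Other genes weighted to the same input levels had 2.37% and 2.69%, so the family was close to its background. With all libraries scaled to the same sum, the split was 3 higher and 12 lower (all genes 1.70% and 5.10%). The median log2 difference was -0.06 for Zfp genes and 0.00 for other genes. Both old pools lay above both young pools for 29 genes and below them for 37, against 17.7% and 17.6% of all genes in both tables, or 16.4% and 20.9% of the Zfp genes. In pooled oocytes, fewer oocytes with an mRNA and less of it per oocyte cannot be told apart.

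On the recovered reads, edgeR's quasi-likelihood test called 0 Zfp genes in input at an adjusted p under 0.05, edgeR's likelihood ratio test 1 (0.475% of all genes) and DESeq2 2 (1.15% of tested genes). Zfp553 was called by both of the latter. It had 53.7 and 61.7 CPM in young and 722 and 127 CPM in old input, a log2 difference of 2.38 ± 0.69 (SE, limma adjusted p = 0.778). The 2 old values differed from each other by more than the lower of them did from the young values. Without old pool 2 its limma adjusted p was 0.0238. Zfp92, a KRAB gene of the X chromosome, was called by DESeq2 and had 34.0 and 45.4 CPM in young and 192 and 92.7 CPM in old input (log2 difference 1.74 ± 0.48, SE, limma adjusted p = 0.778).

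Also among the genes higher in old input was Zfp609, which is known as a partner of the cohesin loader Nipbl and Integrator. It had 34.8 and 57.1 CPM in young and 136 and 117 CPM in old input, without overlap (unadjusted p = 0.00769 in limma). Zfp791 had 99.2 and 108 CPM in young and 185 and 183 CPM in old input. On the lower side, Zfp398 had 72.6 and 59.4 CPM in young and 18.1 and 19.0 CPM in old input, with an unadjusted p of 0.0104 in limma, and Zfp526 had 52.8 and 41.5 CPM in young and 12.2 and 19.4 CPM in old input. Zfp330 had 13.4 and 9.33 CPM in young and 0.515 and 1.48 CPM in old input, but 19.1% of its 50-base words occur elsewhere. Zfp667 had 3.34 and 6.20 CPM in young and 0.0551 and 0.0802 CPM in old input, where the old values are a few reads. In each of these 6 genes both old values were on the same side of both young values. Their choice by small p favours this. Of all genes in both tables, 17.7% had both old pools above and 17.6% below.

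In HA, none of the 177 genes passed an adjusted p of 0.05 in limma, nor did any of the 8898 genes of the table (0%). Unadjusted, 4 were higher and 14 lower in old oocytes, or 2.26% and 7.91%, against 4.28% and 10.5% of all genes and 3.29% and 10.9% of other genes weighted to the same input levels. The filter of the HA table bears on the lower side. Of the 14, 8 (Zfp41, Zfp101, Zfp408, Zfp418, Zfp516, Zfp653, Zfp868 and Zfp956) had entered it through the 2 young libraries alone, with under 1 CPM in both old ones before TMM scaling, so that they had to be lower in old oocytes. The same held for 854 of the 930 lower calls over all genes. Without such genes, a restriction added after seeing the data, 4 of 166 Zfp genes were higher and 6 lower, or 2.41% and 3.61%, against 4.88% and 0.973% of 7809 genes. With all libraries scaled to the same sum instead, the split became 1 higher and 22 lower (all genes 1.26% and 14.4%). With median ratio scaling it was 6 and 9 (all genes 5.62% and 9.43%) and with quantile normalization 4 and 7 (all genes 2.84% and 2.58%), so the balance of directions rests on the scaling. The median difference was -0.18 for Zfp genes and -0.14 for other genes on the deposited scale, and -0.72 and -0.68 (all genes) with equal sums. Both old pools lay above both young pools for 18 Zfp genes (10.2%, against 17.4% of all genes) and below for 45 (25.4%, against 24.4%). The 88 genes with a KRAB pattern had a median difference of -0.26 and the 89 others of -0.07. Relative to other genes of equal input level, these medians were 0.06 and 0.01.

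By the count tests, quasi-likelihood called 0 Zfp genes in HA, the likelihood ratio test 1 (3.32% of all genes) and DESeq2 7 (5.82% of tested genes). Zfp345, a KRAB gene, was called by both of the latter. It had 41.1 and 188 CPM in young and 2.14 and 3.18 CPM in old HA, with 35.1, 40.8, 59.2 and 36.2 CPM in the corresponding inputs. The log2 difference in HA was -4.62 ± 1.37 (SE) with an adjusted p of 0.297 in limma, and 29.8% of its 50-base words are shared with other genes, chiefly Gm14139. DESeq2 also called Zfp319 and Zfp410 as higher and Zfp516, Zfp809, Zfp868 and Zfp939 as lower. Of the lower ones, Zfp516 and Zfp868 are among the genes that had entered the table through the 2 young libraries alone. Leaving out old pool 1 gave 10 Zfp genes with an adjusted p under 0.05 in limma (4.42% of all genes) and leaving out young pool 2 gave 4 (7.13% of all genes), in fits where the lone pool of an age is assumed to vary like the pair of the other.

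Of the genes higher in old HA, Zfp319 had 5.03 and 0.511 CPM in young and 40.9 and 145 CPM in old HA, at input levels of 32.0, 15.0, 21.5 and 6.10 CPM. Its log2 difference in HA was 4.70 ± 1.49 (SE, limma adjusted p = 0.297). Zfp407 had 60.6 and 43.8 CPM in young and 184 and 245 CPM in old HA, the smallest spread of this group. Zfp846 had 5.93 and 35.8 CPM in young and 78.3 and 196 CPM in old HA, and Zfp770 had 36.1 and 50.1 CPM in young and 108 and 207 CPM in old HA. All 4 genes had both old pools above both young pools, as did 17.4% of all genes in both tables. Their choice by small p favours this.

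Of the genes lower in old HA, Zfp516, a factor known from brown fat, had 5.48 and 15.2 CPM in young and 0.356 and 0.0739 CPM in old HA, at 10.2 to 20.2 CPM of input. Zfp418 had 2.53 and 7.58 CPM in young and 0.0475 and 0.0370 CPM in old HA, with 16.5 and 8.25 CPM in young and 5.73 and 6.54 CPM in old input. Zfp101 had 4.48 and 6.59 CPM in young and 0.333 and 0 CPM in old HA. Its input was 1.67 and 8.49 CPM in young and 0 and 0.461 CPM in old pools, so both fractions had lower values in old pools. These 3 are among the genes that entered through the young libraries alone. For each of them at least 1 old library was at or under 3 reads, so their fitted differences (-3.08, -2.40 and -2.48 on the log2 scale with 1 CPM added) depend on that constant. Among members above 3 reads in every HA library, a restriction added after seeing the data that leaves 145 genes, the count was 4 higher and 5 lower, or 2.76% and 3.45%, against 5.27% and 3.46% of 7043 genes.

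**Figure D5:**
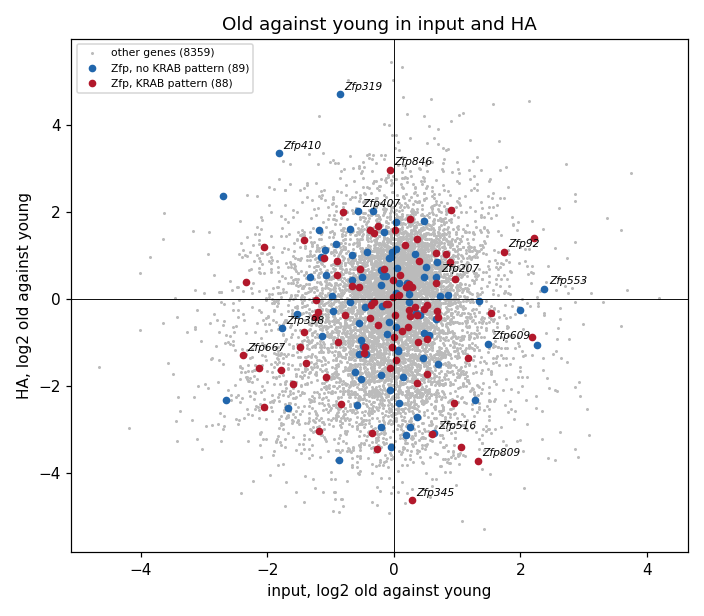
Log2 difference of old against young on log2(CPM + 1), in input (horizontal) and HA (vertical), for the 177 Zfp genes and other genes (grey). Zfp genes lie within the grey cloud and are spread wider in HA than in input; none passed an adjusted p of 0.05 in limma in either.

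The third comparison took HA/input between ages, on log2(HA CPM + 1) minus log2(input CPM + 1). No Zfp gene and no other gene passed an adjusted p of 0.05 in limma (0% of 8537), and the quasi-likelihood interaction test also called 0 Zfp genes. Unadjusted, 5 were higher and 9 lower in old oocytes, or 2.82% and 5.08%, against 2.98% and 3.51% of all genes. The split was 7 and 5 with median ratio scaling (all genes 4.13% and 2.83%) and 2 and 11 with equal sums (all genes 1.25% and 5.52%). Both old pools lay above both young pools for 27 Zfp genes (15.3%, all genes 17.2%) and below for 38 (21.5%, all genes 20.4%). The median difference was -0.02 for Zfp genes, with quartiles of -1.09 and 1.00, and -0.11 for other genes. Relative to other genes of equal input level, the Zfp median was 0.18 (0.24 with a KRAB pattern and 0.02 without).

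Zfp345 had the smallest p, with ratios of 1.17 and 4.61 in young and 0.0361 and 0.0879 in old pools (log2 difference -4.91 ± 1.33, SE, limma adjusted p = 0.739). Zfp809, whose protein binds the primer site of murine leukaemia viruses and silences them, had 1.73 and 8.74 in young and 0.118 and 0.00476 in old pools. Its input was 6.24 and 5.18 CPM in young and 16.1 and 15.5 CPM in old pools while its HA was 10.8 and 45.2 CPM in young and 1.90 and 0.0739 CPM in old pools, of which the last value was 2 reads. Zfp706 and Zfp574 were lower as well, with the ratios given above. Without old pool 1, the log2 difference was -4.68 for Zfp574 and 7.29 for Zfp319. Zfp319 had 0.157 and 0.0341 in young and 1.90 and 23.8 in old pools, with a log2 difference of 5.56 ± 1.68 (SE, limma adjusted p = 0.739). Zfp410, an activator known for its control of Chd4, had 0.376 and 0.113 in young and 20.5 and 144 in old pools. Its old input was 0.129 and 0.702 CPM, so these ratios rest on few input reads, and its HA was 1.47 and 0.441 CPM in young and 2.64 and 101 CPM in old pools. Zfp592 had 0.553 and 0.246 in young and 0.996 and 0.650 in old pools. Zfp414 had 0.633 and 6.41e-04 in young and 29.2 and 1.26 in old pools, with a single HA read in young pool 2 and 25.0% of its 50-base words shared.

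Genes were then grouped by what their proteins do. Of 30 listed, 22 were in both tables, 3 (Zfp292, Zfp462 and Zfp644) in the input table only, and Zfp42, Zfp143, Zfp622, Zfp708 and Zfp827 in neither. Over the 22, 2 were higher and 0 lower in input at an unadjusted p under 0.05 in limma (Zfp207 and Zfp609), 0 and 1 in HA (Zfp809) and 2 and 1 in HA/input (Zfp410, Zfp592 and Zfp809). Over all genes the shares were 2.71% and 3.48% in input, 4.28% and 10.5% in HA and 2.98% and 3.51% in HA/input. None of the 22 passed adjustment.

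Of the retroelement and imprint genes, Zfp445, which helps to maintain imprints, had 16.2 and 18.4 CPM in young and 22.4 and 14.9 CPM in old input. Its HA was 21.9 and 0.317 CPM in young and 26.1 and 0.259 CPM in old pools, so that the pools numbered 2 were low at both ages and no age difference could be read. Zfp932, a repressor of endogenous retroviruses, had 13.8 and 13.0 CPM in young and 17.4 and 15.7 CPM in old input, and 7.17 and 13.7 CPM in young and 15.5 and 9.65 CPM in old HA. Of its 50-base words, 55.5% are shared, mainly with Gm15446, so its reads are less certain than most.

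Among the RNA-binding and splicing proteins, Zfp638 was the most abundant by CPM, at 198 and 279 CPM in young and 268 and 334 CPM in old input. In HA it was 228 and 223 CPM in young and 74.4 and 439 CPM in old pools, where the old values lie on both sides of the young ones. Zfp36 (tristetraprolin), which promotes decay of mRNA with AU-rich elements, had 15.4 and 13.4 CPM in young and 11.3 and 6.32 CPM in old input, and 11.8 and 8.90 CPM in young and 80.8 and 0.407 CPM in old HA. Zfp830, needed for splicing, had ratios of 0.888 and 1.01 in young and 0.834 and 0.181 in old pools. Zfp106 had ratios of 0.567 and 0.612 in young and 0.361 and 1.02 in old pools, and Zfp318 had 0.420 and 0.408 in young and 0.224 and 0.644 in old pools. Zfp326 and Zfp346 each had an old HA library at 0.

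Zfp207 (BuGZ), a spindle protein that binds Bub3, was among the most abundant, at 259.7 and 311 CPM in young and 505 and 405 CPM in old input, with an unadjusted p of 0.0353 and an adjusted p of 0.778 in limma (log2 difference 0.67 ± 0.27, SE). Its HA levels were 556 and 603 CPM in young and 748 and 906 CPM in old pools, and its ratios 2.14 and 1.94 in young and 1.48 and 2.24 in old pools. It lay above other genes of equal input level in all 4 pools. Zfp91, an E3 ubiquitin ligase, had ratios of 0.434 and 0.356 in young and 0.314 and 0.694 in old pools and lay below them in all 4. Zfp451, a SUMO ligase, had 0.987 and 1.22 in young and 0.936 and 0.500 in old pools.

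Other factors of transcription and chromatin varied in the same way. Zfp148, a Krüppel-type factor with 27 CPE matches in its 3'-UTR, had ratios of 0.989 and 1.02 in young and 1.62 and 1.69 in old pools, with 71.8 and 106 CPM in young and 72.9 and 81.4 CPM in old input. Zfp217 had 0.359 and 0.762 in young and 1.14 and 0.0951 in old pools. Zfp335, a partner of histone H3 methyltransferase complexes, had 0.238 and 0.338 in young and 0.00333 and 1.35 in old pools. Zfp281, known from pluripotent cells, had 1.71 and 0.355 in young and 0.00213 and 0.340 in old pools, where the lowest value rests on 1 HA read, and Zfp687 had 0.662 and 0.332 in young and 0.0809 and 2.17 in old pools. Zfp746 (PARIS) had input of 8.91 and 0.421 CPM in young and 0.257 and 21.6 CPM in old pools, so no level could be given for either age.

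The cofactors through which KRAB proteins act were measured in the same libraries. Of 17 listed, 16 were in both tables and Hdac1 was in neither. Dnmt1, the maintenance DNA methyltransferase, had 2770.2 and 3276 CPM in young and 2880 and 2941 CPM in old input, and ratios of 1.14 and 1.15 in young and 1.66 and 1.62 in old pools. Trim28 had 174 and 221 CPM in young and 125 and 53.0 CPM in old input (unadjusted p = 0.0221, adjusted p = 0.778 in limma), and its HA was 500.1 and 207 CPM in young and 206 and 291 CPM in old pools. It was the only one of the 16 cofactors with an unadjusted p under 0.05 in input in limma, and none had one in HA or in HA/input. Over all genes, 6.18% had one in input, 14.7% in HA and 6.49% in HA/input, so the count in input was close to the background. Setdb1 had 330.4 and 138 CPM in young and 218 and 215 CPM in old input. Smarcad1, a remodeller that works with Trim28, had ratios of 2.11 and 2.02 in young and 2.09 and 3.79 in old pools and lay above other genes of equal input level in all 4.

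The 35 genes in a single table had low values. The 28 found in the input table only had mean levels of 0.654 to 25.3 CPM with a median of 1.82 CPM, the highest being Zfp940, and the 7 found in the HA table only had 0.838 to 3.14 CPM. A gene entered a table with at least 1 CPM in 2 libraries before TMM scaling, as the values show, whereas the Methods state 10 CPM. In HA, 11 of the 177 genes passed this through the 2 young libraries alone (6.21%, all genes 12.2%) and 0 through the 2 old ones, and in input 3 and 0 did.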

How the data were processed

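The deposited values are a signal per gene, namely CPM, reads on a gene relative to library size, scaled by the authors with TMM, separately for 4 HA and 4 input libraries. As the Methods describe, NuGEN libraries were trimmed (Trimmomatic 0.36), aligned to mm10 with HISAT2 and counted with HTSeq over whole genes without regard to strand. The Methods do not state how reads on overlapping genes were assigned. All columns were used (left out, 0). Each value was a whole multiple of 1 read (100% of values, tolerance 0.01 reads), and reads were recovered from these steps. Ages were compared with limma 3.58.1 (lmFit, eBayes with trend, two-sided) on log2(CPM + 1). This scale understates changes of low genes. For HA/input, the trend followed the mean of both levels. edgeR 4.0.16 and DESeq2 1.42.0 were run on recovered reads (R 4.3.3). With 2 pools against 2, an exact permutation test cannot go below p = 0.333. The study describes the 2 pools of an age as biologically independent and from a single experiment, and p-values measure the spread between these pools. The Methods state a minimum of 10 CPM in 2 samples, but the deposited tables hold genes from 1 CPM in 2 libraries. HA and input of a pool share its lysate. Fingers and KRAB patterns were found in translated GENCODE M21 coding sequences, and CPEs in their longest 3'-UTRs.

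The members and lists were chosen with earlier results of these data known. Named genes were the role lists, the 4 smallest p in each direction and comparison, the 5 highest levels per kilobase in each fraction and the 4 highest and lowest HA/input at a mean input of at least 10 CPM. Others were named after their values were seen, as runs, count-test calls and single-table genes. One further Zfp gene is not reported here. Tests were checked on simulated data, and other steps used pandas 2.3.3, numpy 2.4.6 and matplotlib 3.10.9 in Python 3.11.15.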

Additional observations from a re-analysis of the deposited data

How the results depend on the processing

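Counts are of Zfp genes at an unadjusted p under 0.05, where 11 were found in input, 18 in HA and 14 in HA/input, and percentages are the share of Zfp genes and then of all genes. In input, eBayes without trend gave 18 (10.2% and 7.70%), and leaving out each pool in turn gave 3 to 21. It gave 3 (1.69%) without either young pool, where all genes had 2.88% and 4.01%, 16 without old pool 1 (9.04% and 11.1%) and 21 without old pool 2 (11.9% and 9.34%). In HA, DESeq2 gave 32 (18.1% and 17.3%), genes with at least 10 CPM in 2 libraries 8 (of 116 genes, 6.90% and 9.52%), edgeR's quasi-likelihood test 11 (6.21% and 13.5%), quantile normalization 11 (6.21% and 5.43%), members above 3 reads in every HA library 9 (6.21% and 8.73%) and members that had not entered through the 2 young libraries alone 10 (6.02% and 5.85%). Leaving out each pool gave 10 to 45, with 10 (5.65% and 11.9%) and 11 (6.21% and 12.2%) without young pools 1 and 2, and 40 (22.6% and 26.1%) and 45 (25.4% and 19.7%) without old pools 1 and 2. In HA/input, at least 10 CPM in 2 libraries gave 9 (8.18% and 6.94%), the quasi-likelihood test 9 (5.08% and 7.44%), and leaving out each pool 1 to 49, with 5 (2.82% and 1.98%) and 1 (0.565% and 0.539%) without young pools 1 and 2, and 32 (18.1% and 25.1%) and 49 (27.7% and 19.1%) without old pools 1 and 2. With a replicate block the counts were 13 in input (7.34% and 6.44%), 17 in HA (9.60% and 15.5%) and 12 in HA/input (6.78% and 7.12%). Pools of the same number share only that number in the labels: the correlation of their deviations was 0.03 in input, 0.08 in HA and 0.01 in HA/input, and the block changed no adjusted call among the Zfp genes.

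The distance of HA/input from genes of equal input level had a mean of 0.00 in young and 0.00 in old pools. It became -0.02 and 0.16 against genes of equal HA CPM, 0.01 and 0.05 with a pseudocount of 0.1, 0.06 and -0.11 with members of at least 10 CPM in 2 input libraries, -0.10 and 0.11 with equal GC content as well, and -0.12 and 0.06 with members sharing at most 1% of 50-base words. The last 2 were chosen after seeing the data, as was a trend on mean log2 HA/input, which gave 11 calls (6.21% and 6.56%). The difference between KRAB and other Zfp genes moved by less than its spread between pools in every alternative run. No gene named for its p reversed direction. Ratios of genes at 3 reads or fewer in a library rest on those few reads. The cause of these shifts was not tested.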
